A study of Mus musculus with 8 samples.

Results

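Macrophages in which the endocytic adaptor Dab2 had been knocked down were compared with control macrophages after both had been exposed to LPS. The comparison rests on 4 of the 8 arrays of the study, the 2 shDab2 LPS arrays and the 2 shLuc LPS arrays, and it covers the 21876 of 26423 probes that carry a single gene symbol, which stand for 19084 genes. The cells were RAW264.7, a mouse macrophage-like line. The shLuc cells stably expressed a short hairpin RNA (shRNA) against luciferase, a gene that mouse cells lack, and the shDab2 cells, called shDab2-B in the study, expressed a single shRNA against Dab2 from an integrated lentivirus. LPS, the endotoxin of Gram-negative bacteria, was given at 100 ng/ml for 6 h. The remaining 4 arrays, 2 of each line, came from cells given PBS instead and are used here for the resting state. They are not an earlier time of the LPS-treated cells. On the arrays a single control line was set against a single knockdown line, so the loss of Dab2 and any other difference between the lines cannot be told apart. The study repeated a few cytokine and chemokine measurements by RT-PCR in a line with another Dab2 shRNA, which was not on the arrays. The labels number the replicates 1 and 2 without saying that they were separate cultures, and the p-values therefore measure only the spread between these arrays.

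TLR4 at the cell surface signals through the adaptor MyD88 to NF-kB and the MAP kinases, which drive cytokine and chemokine genes. After the receptor is taken up into endosomes it signals through TRIF, which leads to phosphorylation of the transcription factor IRF3 and to the production of interferon beta. Secreted interferon beta then acts on the interferon receptor of the same and of neighbouring cells and turns on the interferon-stimulated genes. Dab2 binds clathrin and cargo receptors during endocytosis, and the comparison addresses which of these gene programmes differ when the cells meet LPS with less Dab2.

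The arrays were one-colour oligonucleotide arrays whose values are fluorescence intensities with no read counts behind them, and precision is set by how many arrays there were. Intensities were brought to one distribution over all 8 arrays, and 42.12 to 42.27% of the probes of an array then reached 50, the level below which a probe is treated here as dim. Differences are given as log2(intensity + 50) in shDab2 minus shLuc cells with the standard error (SE) of the fit, folds are ratios of mean intensities, and a gene is called higher or lower where limma's p-value, adjusted over all 26423 probes by the Benjamini-Hochberg method, is under 0.05. Where one group lay below 50 on both arrays, the fold is set against 50 and written as at least that size. A gene with several probes is represented by its brightest probe, and its other probes need not be called. Among genes named below, 1 of 2 probes was called with LPS for Sting1, Cd36, Npc2, Pde4b, Trim21, Nlrc5, Ifnar1, Sh3pxd2a and Kbtbd11. Both were called for Tnfsf15, Tnfrsf1b, Rab11a and 3110082I17Rik. Since the RNA came from whole cultures and was normalized to one distribution, less RNA of a gene per cell and fewer cells that make it cannot be told apart, and a change in total RNA cannot be seen.

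Dab2 itself was close to the dim range in every array. Its intensity was 52.2 and 72.4 in the shLuc LPS arrays and 39.1 and 34.8 in the shDab2 LPS arrays. The arrays of the groups did not overlap, which with 2 arrays a group carries little weight. The difference of -0.36 (SE 0.12) did not pass the test (limma adjusted p = 0.058), and the intensity was at least 1.23-fold lower. Without LPS the probe read 91.1 and 88.1 in shLuc cells and 59.1 and 76.0 in shDab2 cells (-0.25, limma adjusted p = 0.26). The study reports less Dab2 protein in the shDab2-B cells by Western blot, which the arrays do not measure. Among markers of the labelled cell type, Cd68, Csf1r, Itgam, Fcer1g and Tyrobp were bright in all 8 arrays, whereas C1qa and C1qb were dim in the LPS arrays. No member of the neutrophil list (10 measured) or of the lymphocyte list (10 measured) was called. Of these, 9 neutrophil and 8 lymphocyte members lay below 50 on all 8 arrays, so the absence of calls says little. A mean of 50 or more was reached by 1 neutrophil and 2 lymphocyte members. The neutrophil genes S100a8 and S100a9 and the B cell gene Ms4a1 stayed below 10 in the LPS arrays. In the fibroblast and endothelial list 1 of 14 members was called higher, Fap, at 53.2 and 57.0 against 89.0 and 100.2 (0.46, limma adjusted p = 0.0098), a call lost without shLuc LPS replicate 1 or shDab2 LPS replicate 2.

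With LPS, 1730 genes were higher in shDab2 cells, 9.07% of the 19084 genes, and 2223 were lower, 11.6%. Among the 9505 genes with a mean of 50 or more over the 8 arrays these shares were 16.4% and 21.9%. Each list count below is to be read beside these shares, the second pair where most members were above the dim range. The typical called difference was small: its median was 0.42 among the higher genes and -0.41 among the lower ones, against a median of -0.01 over all genes and a median SE of 0.08 for the genes above the dim range. The large differences were mostly rises, since 153 genes rose and 63 fell by more than 1 on the log2 scale. In all 1730 higher and all 2223 lower genes the arrays of the lines did not overlap, so separate arrays add nothing to a call. The higher share of the probes called was 45.6% and became 70.0% when the arrays were left without normalization between them, so the balance of rises and falls depended on it. The plot of difference against mean intensity shows both sides of the comparison.

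**Figure D1:**
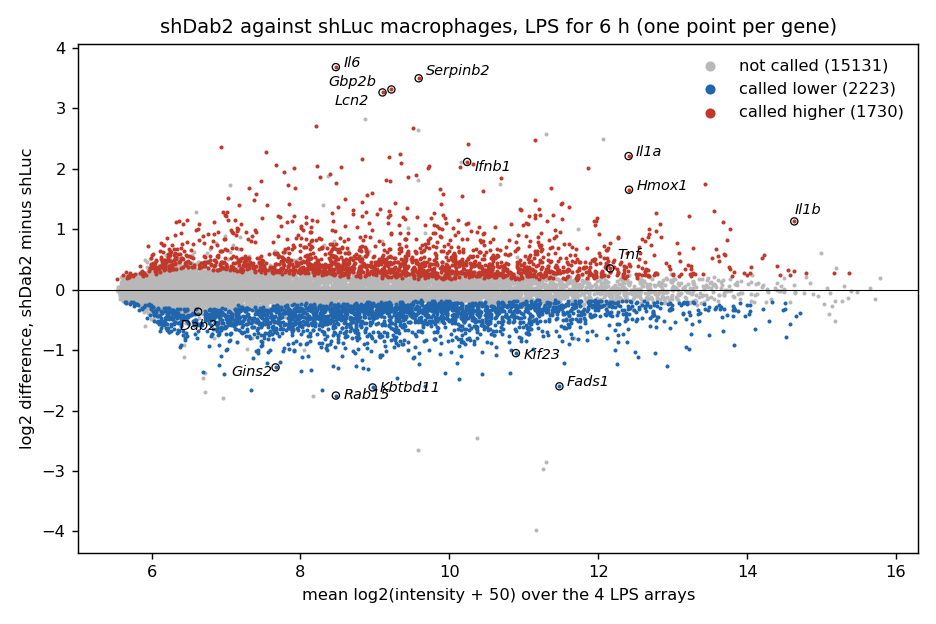
Each point is one of 19084 genes: the x axis gives the mean log2(intensity + 50) over the 4 LPS arrays, and the y axis the log2 difference of shDab2 minus shLuc cells with LPS. Red points are the 1730 genes called higher, blue points the 2223 called lower and grey points those not called; the rises reach 3.68 for Il6, while the called falls end at -1.75 for Rab15.

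The interferon beta gene and the genes that IRF3 switches on directly were higher in shDab2 cells given LPS. Of 11 measured members of this list, 9 were higher and none lower, with a median difference of 1.25. Ifnb1, the gene of interferon beta, read 541 and 520 in the shLuc LPS arrays against 2499 and 2432 in the shDab2 LPS arrays. The difference was 4.65-fold on average (2.12, SE 0.07, limma adjusted p = 3.7e-08). Ifit1, whose product binds foreign RNA that lacks the cap marks of the host, read 844 and 801 against 3083 and 3136 (1.86, limma adjusted p = 5.6e-08), and Ifit2, of the same family, 1364 and 1496 against 3689 and 3708 (1.34). Both pairs were far apart compared with the scatter within them. Rsad2, which codes for the antiviral enzyme viperin, went from 1743 and 1691 to 4736 and 4641 (1.42). The chemokines Cxcl10 and Ccl5, which draw T cells, read 1856 and 1745 against 6892 and 8064 and 301 and 275 against 793 and 719 (2.02 and 1.25). Cxcl9 and Cxcl11, further members of the list, were not called; Cxcl9 read 48.4 to 56.0 over the 4 LPS arrays. Cxcl11 read 5.50 and -4 against -2 and 57.9, and without shDab2 LPS replicate 1 its difference of 0.51 became 1.09 and passed the test (limma adjusted p = 0.00040).

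Some members of this list stood the other way round without LPS, where 5 of the 11 were called lower in shDab2 cells and 2 higher. Of all 19084 genes, 1221 were called lower at rest and 1079 higher, and the resting counts of other lists are read beside these. In resting cells Ifnb1 read 43.5 and 37.9 in shLuc and between 12 and 16.2 in shDab2 cells, all below 50, and the fitted difference was -0.50. Ifit2 read 645 and 662 against 452 and 443 (-0.50, limma adjusted p = 0.00034), and Rsad2 341 and 342 against 190 and 203 (-0.67, limma adjusted p = 3.4e-05). Ifit2 and Rsad2 were thus lower in resting shDab2 cells and higher in shDab2 cells given LPS. The test of the change itself, the line difference with LPS minus the line difference without, gave 1.84 for Ifit2 (limma adjusted p = 7.1e-07), 2.09 for Rsad2 (2.4e-07) and 2.62 for Ifnb1 (2.5e-07). Over all genes 5.8% were called in this test, and 11.1% of the genes above the dim range. Of the IRF3 list 8 of 11 members were called with a positive change and none with a negative one.

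The wider antiviral effectors were also mostly higher with LPS. Of 25 measured members, 19 rose with LPS in shDab2 relative to shLuc cells, 1 fell and 5 were not called, with a median of 0.60. In resting cells 13 were lower, none was higher, and the median was -0.26. The change between the states was called for 21 members, in each with a positive sign. Mx1, a dynamin-like GTPase that blocks virus replication, read 73.2 and 65.8 against 399 and 467 with LPS (2.01, SE 0.11, limma adjusted p = 4.9e-07). Isg20, an exonuclease acting on RNA, read 312 and 331 against 877 and 867 with LPS (1.31), but 184 and 172 against 74.1 and 77.0 without (-0.86). The order of this probe between the lines was reversed between the states. Isg20 has 3 probes, of which only this brightest one was called higher with LPS. Cmpk2, a mitochondrial nucleotide kinase, rose by 1.27, and the ubiquitin-like modifier Isg15 by 0.85. The single member that fell was Ifi27l2a, at 10029 and 9935 against 4473 and 5138 (-1.05, limma adjusted p = 2.0e-06), and it was also lower in resting cells (-0.75). Bst2, Ifitm3, Oas2 and Eif2ak2 were not called with LPS, with differences between -0.21 and 0.17. Ifitm3 was called higher with 75th percentile scaling (limma adjusted p = 0.014), with cyclic loess (0.013) and without normalization between arrays (0.00091), Eif2ak2 was called higher without normalization (0.015), and Oas2 was called lower without shLuc LPS replicate 2 (-0.31, 0.034).

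**Figure D2:**
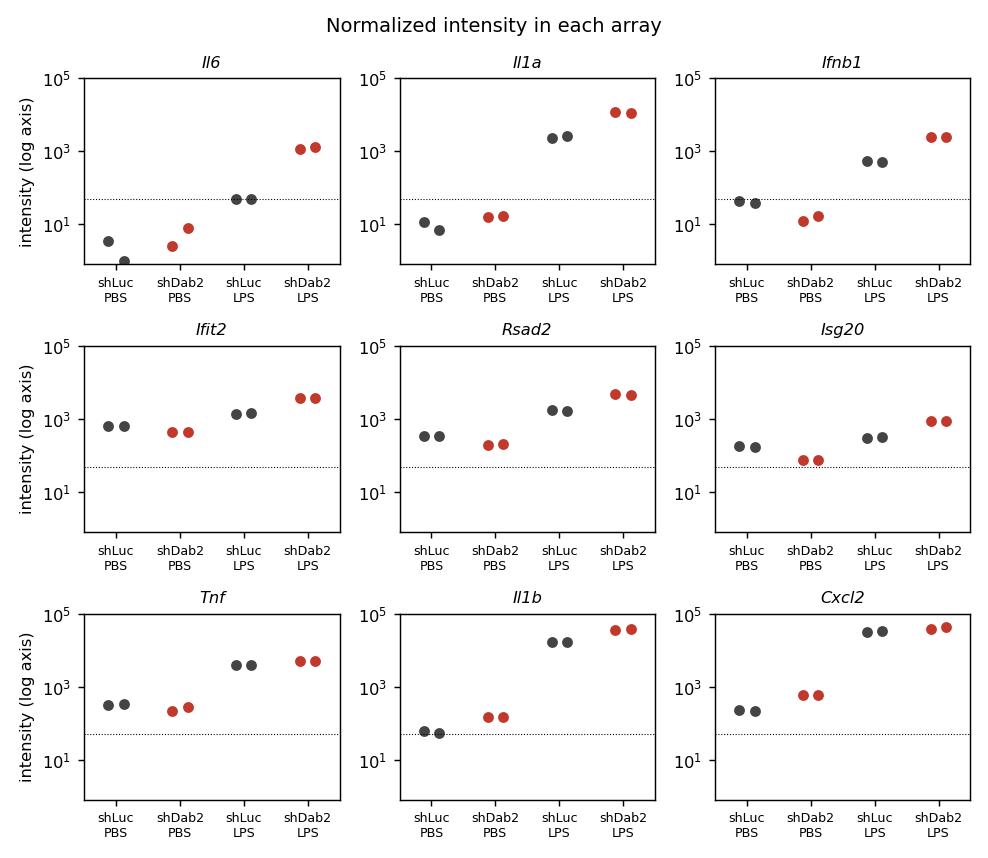
Normalized intensity on a log axis for 9 genes, with each point 1 array (black shLuc, red shDab2) and a dotted line at 50. Ifit2, Rsad2 and Isg20 are lower in shDab2 than in shLuc cells with PBS and higher with LPS. Tnf has the same order, but Tnf and Cxcl2 differ little between the lines once LPS is given.

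To show what the promoters of these genes hold, the 300 bases around the start (250 before and 50 after) are printed for a few of them from RefSeq (GRCm38.p6), read 5′ to 3′ on the strand of the gene. Capitals mark the core of an interferon-stimulated response element, GAAANNGAA on either strand, and for Ifnb1 and Cxcl10 also the core of an NF-kB site, GGGANNTTC on either strand. The regions are Ifnb1 at chr4:88522745-88523044 (minus strand), Cxcl10 at chr5:92348840-92349139 (minus), Ifit1 at chr19:34640639-34640938 (plus), Rsad2 at chr12:26456403-26456702 (minus) and Gbp2 at chr3:142620413-142620712 (plus).
Ifnb1: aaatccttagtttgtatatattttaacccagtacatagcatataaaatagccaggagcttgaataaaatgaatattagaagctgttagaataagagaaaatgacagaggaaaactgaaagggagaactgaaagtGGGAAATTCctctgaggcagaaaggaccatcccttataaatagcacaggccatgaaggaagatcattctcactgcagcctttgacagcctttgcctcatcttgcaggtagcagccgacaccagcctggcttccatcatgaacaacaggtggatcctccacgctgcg
Cxcl10: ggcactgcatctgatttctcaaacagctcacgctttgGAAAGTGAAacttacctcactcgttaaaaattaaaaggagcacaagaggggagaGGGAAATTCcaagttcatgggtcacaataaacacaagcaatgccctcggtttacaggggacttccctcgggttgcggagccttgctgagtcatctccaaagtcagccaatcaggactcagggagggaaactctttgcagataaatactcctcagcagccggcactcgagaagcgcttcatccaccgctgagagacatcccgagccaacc
Ifit1: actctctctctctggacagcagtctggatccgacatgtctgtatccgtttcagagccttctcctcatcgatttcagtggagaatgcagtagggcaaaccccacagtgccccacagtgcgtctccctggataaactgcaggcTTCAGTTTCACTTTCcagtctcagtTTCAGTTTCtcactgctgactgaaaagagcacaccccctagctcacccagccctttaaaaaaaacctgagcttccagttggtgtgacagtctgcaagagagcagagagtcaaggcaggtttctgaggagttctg
Rsad2: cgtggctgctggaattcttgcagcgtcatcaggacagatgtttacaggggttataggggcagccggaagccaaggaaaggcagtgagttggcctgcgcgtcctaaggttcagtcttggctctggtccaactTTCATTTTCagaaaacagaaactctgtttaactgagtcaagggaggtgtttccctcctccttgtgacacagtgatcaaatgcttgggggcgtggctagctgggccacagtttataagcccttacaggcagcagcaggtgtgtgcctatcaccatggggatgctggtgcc
Gbp2: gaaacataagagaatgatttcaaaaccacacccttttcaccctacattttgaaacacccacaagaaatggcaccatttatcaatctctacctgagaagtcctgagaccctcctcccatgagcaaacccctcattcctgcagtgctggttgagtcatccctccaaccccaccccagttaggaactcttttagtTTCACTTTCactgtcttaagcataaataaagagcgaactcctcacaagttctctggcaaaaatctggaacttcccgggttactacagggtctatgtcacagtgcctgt
The Ifnb1 window held 1 NF-kB core and no match to the GAAANNGAA letters, Cxcl10 held 1 of each, Ifit1 held 3 interferon elements, 2 of which overlap, and Rsad2 and Gbp2 held 1 interferon element each.

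Over the 32851 promoters of that length, 8.56% held the interferon element core, and 7.57% of the 18476 promoters of genes on the array did. The share was 16.4% among the 159 promoters of genes that rose by more than 1, 9.77% among the 1801 promoters of all genes called higher and 5.99% among the 2303 promoters of genes called lower. In the antiviral list 10 of 20 promoters held it, and 8 of 10 did among the interferon-inducible GTPases described next. The NF-kB core stood in 3.94% of all promoters and in 3.81% of those of genes on the array. It stood in 10.1% of those of genes that rose by more than 1, in 4.89% of those of all genes called higher and in 3.73% of those of genes called lower. A sterol element core (ATCACNCCA) and a cyclic AMP response element (TGACGTCA) were also searched on both strands: the first stood in 0.868% of all promoters, 0.655% of those of genes on the array, 0.555% of those called higher and 0.478% of those called lower, the second in 1.79%, 2.4%, 3% and 2.91%. Motifs were counted separately, so a window can hold several, and a match to these letters describes the sequence only.

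The interferon-inducible GTPases, which coat and break open the vacuoles of intracellular microbes, were all higher: 10 of 10 measured members were called, with a median of 1.22. Gbp2b read 130 and 148 in the shLuc LPS arrays and 1860 and 1803 in the shDab2 LPS arrays, a 13.2-fold difference (3.31, SE 0.08, limma adjusted p = 5.1e-09). Gbp2 read 66.2 and 65.8 against 726 and 695, 10.8-fold, and Gbp3 406 and 336 against 1589 and 1687, 4.44-fold. The values of each gene were close within a line and well apart between the lines. Gbp7 rose by 1.58, and Ifi47, of the immunity-related GTPase family, by 1.34. Guanylate-binding proteins are near-identical in parts of their sequence, and how far these probes tell them apart was not tested. In resting cells 1 member was called higher (Gbp2, 0.39, limma adjusted p = 0.033) and 3 lower, with differences of 0.17 for Gbp2b and 0.16 for Gbp3 that were not called, and the change between the states was called for 9 of the 10 members.

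Of 13 measured interferon-inducible PARP, TRIM and Schlafen genes, 10 were higher and none lower, with a median of 0.46. Slfn5 and Slfn4, of the Schlafen family that restrains growth and virus production, rose by 1.10 and 1.09, and Trim21, an intracellular antibody receptor, by 0.66. Among 12 sensors of nucleic acid in the cytosol 6 were higher and 2 lower. Ifi204, a DNA sensor of the AIM2-like family, read 240 and 205 against 1067 and 1336 (2.19, limma adjusted p = 3.5e-07). Zbp1, which senses Z-form nucleic acid, read 214 and 235 against 642 and 755 (1.44). Sting1, the adaptor of cytosolic DNA sensing, went the other way, at 1086 and 1098 against 661 and 713 (-0.63, limma adjusted p = 3.2e-05), and was lower at rest too (-0.43). The kinase Jak2 (1.23), Stat2 (0.68), the interferon receptor gene Ifnar1 (0.60) and the STAT5-induced inhibitor Cish (1.66) were among the 10 of 25 IRF, STAT and SOCS genes that rose, whereas Irf3 itself fell by 0.45 (limma adjusted p = 0.00037). Antigen presentation by MHC class I followed with 5 of 12 members higher and none lower, among them the peptide transporters Tap1 (0.83) and Tap2 (0.71), their activator Nlrc5 (0.87) and the immunoproteasome subunit Psmb8 (0.69).

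The secreted cytokines of the IL-6, colony-stimulating and IL-12 families rose in 13 of 20 measured members and fell in none (median 0.61). Il6 read 49.8 and 48.6 in the shLuc LPS arrays, at the edge of the dim range, and 1148 and 1307 in the shDab2 LPS arrays, a difference of at least 24.5-fold (3.68, SE 0.10, limma adjusted p = 8.6e-09). It was the widest gap of any called gene, and in resting cells Il6 was below 10 on all 4 arrays. Csf2, the gene of GM-CSF, read 1444 and 1395 against 4417 and 4942 (1.69), and Lif, an IL-6 family cytokine, 776 and 784 against 1715 and 1765 (1.11). Both were absent from the bright range in resting cells, with intensities under 10 in either line. The subunits of IL-12 itself, Il12a and Il12b, were below 50 and not called, and Il10 read 83.4 and 30.9 against 62.6 and 65.5, with no call. Without shLuc LPS replicate 1 the difference of Il10 was 0.50.

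The promoter of Il6 (chr5:30012864-30013163, plus strand, GRCm38.p6) is shown because Il6 made the largest rise, with the NF-kB core in capitals.
Il6: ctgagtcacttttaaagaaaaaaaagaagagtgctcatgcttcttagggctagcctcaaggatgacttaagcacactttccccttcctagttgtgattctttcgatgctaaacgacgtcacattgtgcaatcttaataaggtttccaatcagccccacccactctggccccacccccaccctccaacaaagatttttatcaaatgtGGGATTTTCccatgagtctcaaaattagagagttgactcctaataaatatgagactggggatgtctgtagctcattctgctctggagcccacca
It held 1 NF-kB core, shortly before the start of transcription.

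In the IL-1 family and inflammasome list 5 of 17 members rose and none fell. Il1a read 2374 and 2576 against 11846 and 11447 (2.21, SE 0.07, limma adjusted p = 1.3e-08), and Il1b, which codes for the main secreted IL-1, 17391 and 16857 against 36890 and 38232 (1.13). These rises did not have the same course: for Il1b the resting cells already differed by 0.89 and the change between the states of 0.24 was not called (limma adjusted p = 0.12), whereas for Il1a the resting difference of 0.15 was not called and the change was 2.06 (7.9e-07). Il18 (1.17), Casp1, which cleaves both precursors of IL-1 beta and IL-18 (1.14), and the antagonist Il1rn (1.10) were the other rises of the list. A transcript named Il1bos, on the opposite strand of Il1b, read 5.50 and 2.38 against 246 and 211, at least 4.55-fold, and whether its probe separates the strands was not tested.

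Tnf and Cxcl2, classical early targets of NF-kB, differed far less. Tnf read 3980 and 4019 against 5199 and 5046, 1.28-fold (0.35, SE 0.08, limma adjusted p = 0.011), and the call was lost without shLuc LPS replicate 1 (0.055) or without shDab2 LPS replicate 1. Cxcl2, a neutrophil chemokine, read 32851 and 33856 against 38232 and 43022 (0.28, limma adjusted p = 0.0090), with calls lost in the 4 LPS arrays alone (0.053) and without shLuc LPS replicate 1 (0.057) or shDab2 LPS replicate 2. At rest Tnf was lower in shDab2 cells (-0.33, limma adjusted p = 0.023), and its change between the states was positive (0.69, limma adjusted p = 0.0057). Cxcl2 was higher in resting shDab2 cells by 1.25, so its change between the states was negative, -0.97 (limma adjusted p = 0.00010). Ccl3 read 65469 and 41384 against 54200 and 65469, at the ceiling of the scanner in 2 arrays, and was not called. Its difference of 0.19 became 0.51 without shLuc LPS replicate 1. Within the TNF superfamily 11 of 24 members rose and none fell, led by the T cell costimulator Tnfsf15 (457 and 504 against 2759 and 2764, 2.41), the receptor Tnfrsf1b (1.49) and the death receptor Fas (1.07).

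Chemokine genes rose in 15 of 22 members and fell in none, with a median of 0.59. Ccl12 and Ccl7, which attract monocytes, read 94.5 and 97.9 against 573 and 537 and 337 and 338 against 1459 and 1347 (2.05 and 1.91). Ccl22, a ligand of CCR4, was below 50 in shLuc cells (40.6 and 48.6) and at 269 and 292 in shDab2 cells, at least 5.6-fold. Cxcl3 read 18.2 and 52.2 against 367 and 343 (2.28, SE 0.16). All of these sets were apart, as in every called gene, although Cxcl3 scattered within the shLuc group. Among receptors for chemoattractants 7 of 19 rose and 1 fell. Ccrl2, an atypical receptor that holds chemerin at the cell surface, read 906 and 912 against 5382 and 5209 (2.48), and Gpr84, a receptor for medium-chain fatty acids, rose by 0.88.

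Genes of the NF-kB and MAP kinase pathways that feed back on them, many of them inhibitors, were mostly higher too. Of 28 measured genes of this kind 19 were higher and 1 was lower (Sqstm1, -0.29, a call lost in 5 alternatives), with a median of 0.48. Tnfaip3, which codes for the ubiquitin-editing inhibitor A20, read 1710 and 1691 against 4039 and 4096 (1.23, SE 0.05, limma adjusted p = 1.1e-07). Irak3, an inhibitory member of the IRAK family, read 148 and 156 against 404 and 386 (1.14), and Atf3, a repressor of cytokine genes, 94.5 and 86.1 against 326 and 327 (1.43). None of these had overlapping arrays, which holds for every called gene. The precursor gene Nfkb2 rose by 1.03 and the nuclear inhibitor-like factor Nfkbiz by 0.95. Socs3, an inhibitor of cytokine receptors, differed by 0.37 (4555 and 4698 against 6209 and 5793, limma adjusted p = 0.0043). At rest Socs3 was lower in shDab2 cells (-0.32, limma adjusted p = 0.017), and its change between the states was 0.69 (limma adjusted p = 0.0029). Rela (0.09), Icam1 (-0.09) and Dusp1 (-0.14) were not called, though Rela passed without normalization between arrays (0.22, limma adjusted p = 0.048).

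**Figure D3:**
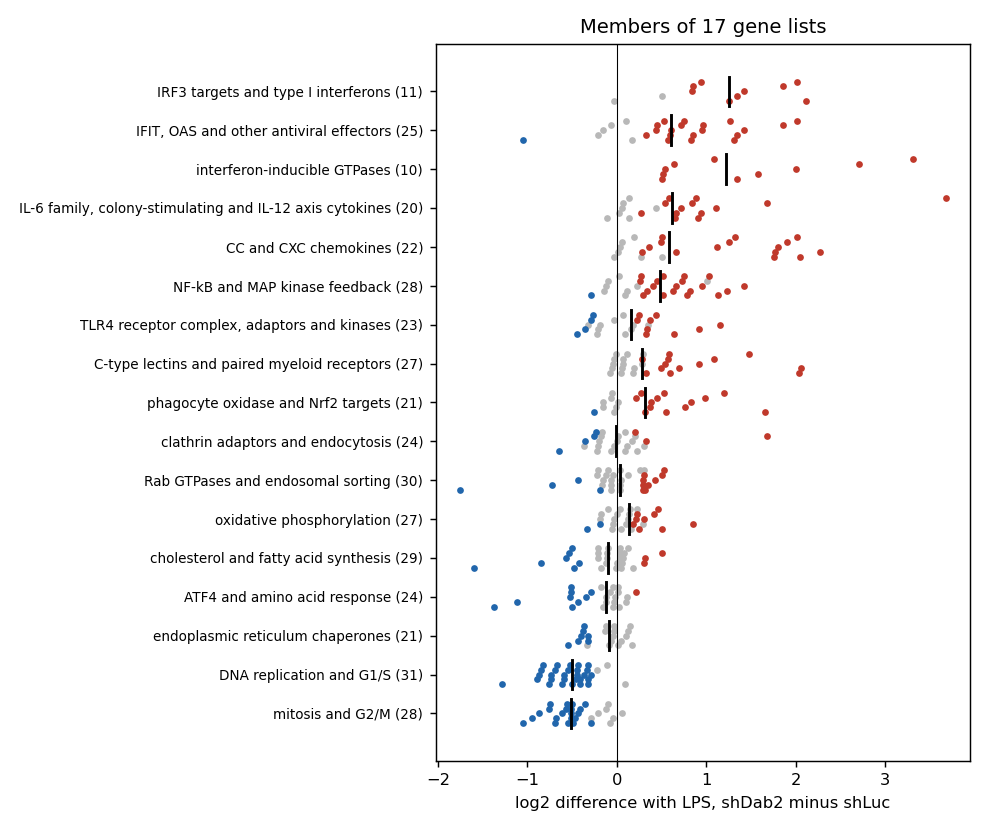
Each point is a measured member of 1 of 17 gene lists, placed by its log2 difference with LPS (shDab2 minus shLuc), red where called higher, blue where called lower and grey where not called; the black bar is the median of the list and the number in brackets its measured members. All 10 interferon-inducible GTPases lie to the right of 0, and 28 of 31 DNA replication genes are called lower.

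Members of the LPS receptor complex, its adaptors and its kinases went both ways. Tlr4 read 322 and 336 against 550 and 528 (0.64, SE 0.07, limma adjusted p = 6.5e-05) and did not differ detectably in resting cells (0.07). Of 23 measured members of the TLR4 list 9 rose and 4 fell. Cd180, a TLR4-related receptor of myeloid and B cells, rose by 1.16, Ikbke, a kinase that phosphorylates IRF3, by 0.93, and the other IRF3 kinase Tbk1 by 0.25. Myd88 rose by 0.32 and the TRIF-sorting adaptor Ticam2 by 0.34, and the calls of Tbk1, Myd88 and Ticam2 were each lost when single LPS arrays were left out, whereas the MyD88-sorting adaptor Tirap fell by 0.35. Ticam1, the gene of TRIF, was not called (-0.22, limma adjusted p = 0.10). Cd14, the co-receptor that hands LPS to TLR4, read 51011 and 19250 against 43022 and 37402, so its shLuc arrays enclosed the shDab2 arrays. Its fitted difference of 0.36 became 1.05 without shLuc LPS replicate 1 and -0.35 without shLuc LPS replicate 2, each then past the threshold.

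Genes of clathrin-mediated uptake, the process in which Dab2 works, were also examined. Of 24 measured members 3 rose and 4 fell, and 17 were not called, with a median of -0.01. Of all genes 9.07% were called higher and 11.6% lower. Among genes above the dim range, as 21 of the 24 members were, the shares were 16.4% and 21.9%. The clathrin heavy chain Cltc read 6542 and 6268 against 6550 and 7092 (0.09) and was not called, nor were the light chain Clta (0.23, limma adjusted p = 0.060, under 0.05 in some alternatives), the adaptor subunits Ap2m1 and Ap2s1 or the dynamin Dnm2 (-0.22). Dnm2 passed the test with dim probes left out (0.048) and without either shDab2 PBS array (0.034 and 0.035), and Cltc and Ap2s1 did without normalization between arrays. The scavenger receptor Cd36 made the largest called difference of the list, at 34.2 and 42.5 against 217 and 250, at least 4.7-fold (1.68). Cd36 was higher at rest as well (0.98, limma adjusted p = 0.00013). Lrp1 rose by 0.33. Arrb1, a beta-arrestin, fell by 0.64 and the membrane-bending protein Fcho2 by 0.35. Of 30 Rab GTPase and sorting genes 9 rose and 4 fell, with Rab11a, of the recycling endosome, at 3665 and 3606 against 4906 and 5623 (0.52, limma adjusted p = 0.00032). Rab15, another GTPase of recycling endosomes, made the largest called fall of the comparison, from 642 and 565 to 149 and 139 (-1.75, SE 0.08, limma adjusted p = 1.7e-07). Among lysosomal genes 9 of 23 rose and 3 fell. Npc2, which carries cholesterol out of the lysosome, rose by 0.80 and the membrane protein Lamp2 fell by 0.45.

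Several surface receptors of myeloid cells were higher in shDab2 cells both with LPS and without it. Clec7a, the beta-glucan receptor Dectin-1, read 514 and 505 against 2304 and 2190 (2.04), and at rest 557 and 601 against 2660 and 2791 (2.14). The difference was nearly the same in either state, with a change of -0.11 that was not called. Adgre1, which codes for the macrophage marker F4/80, read 609 and 532 against 2718 and 2425 with LPS (2.08) and 445 and 415 against 1295 and 1242 without (1.46). The integrin subunit Itgax (2.16 and 1.32) and Cd83, a marker of activated antigen-presenting cells (1.55 and 1.17), showed the same order with and without LPS. Of 27 lectin and paired receptor genes 13 rose and none fell, Clec4n, the receptor Dectin-2, by 2.07, the inhibitory Fc receptor Fcgr2b by 1.09 and Pilra, an inhibitory paired receptor, by 1.48 (51.0 and 48.6 against 236 and 221). Of these, Clec4n was higher at rest as well (0.86), Fcgr2b was lower there (-0.40, limma adjusted p = 0.0057) and Pilra was not called (-0.03). Other macrophage genes fell: Csf1r, the receptor for M-CSF, from 10581 and 9343 to 6396 and 6327 (-0.64), and Cd68, a lysosomal glycoprotein, by 0.40. Within the macrophage list 9 of 19 rose and 2 fell. Costimulatory and adhesion genes rose in 12 of 25 members and fell in 1, with Icosl at 1.21, Cd80 at 1.12 and Cd274, the gene of PD-L1, at 0.97. Of 15 dendritic cell markers, only 4 of them above the dim range, 1 rose (Itgax) and 2 fell. Flt3, Ccr7 and Xcr1 were below 10 throughout the LPS arrays.

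Several enzymes of the activated macrophage were higher. In the list of itaconate, nitric oxide and arginine metabolism 5 of 10 members rose and none fell, and in that of prostaglandin and leukotriene synthesis 5 of 16 rose and 3 fell. Acod1, which makes itaconate, read 8117 and 7036 against 17276 and 20429 (1.31), Nos2, the inducible nitric oxide synthase, 849 and 840 against 1732 and 1673 (0.97), and Ptgs2, the inducible cyclooxygenase, 10619 and 9690 against 17176 and 18825 (0.82). For Ptgs2 and Acod1 the difference was already present in resting cells (0.73 and 1.09), and the change between the states was not called. Alox5, the lipoxygenase that starts leukotriene synthesis, fell from 226 and 224 to 149 and 136 (-0.52, limma adjusted p = 0.00025). Hdc, which makes histamine, read 305 and 324 against 1304 and 1261 (1.87) with no difference detected at rest (-0.03). Of 21 genes of the phagocyte oxidase and of the Nrf2 response to oxidants 13 rose and 1 fell, with a median of 0.32. Hmox1, which breaks down heme, read 2957 and 3092 against 9720 and 9534 (1.66, SE 0.06, limma adjusted p = 5.1e-08). Prdx1, a peroxidase, read 138 and 118 against 358 and 358 (1.20), and Sod2, the mitochondrial superoxide dismutase, rose by 0.84. Iron and zinc genes rose in 7 of 16 members and fell in 2. Lcn2, which withholds bacterial iron carriers, read 127 on both shLuc arrays and 1644 and 1665 on the shDab2 arrays, 13-fold, and Slc11a1, a metal transporter of the phagosome, 1239 and 1509 against 3099 and 2885 (1.10).

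Proteases and their inhibitors did not move as a block: 5 of 20 rose and 4 fell. Of all genes 9.07% rose and 11.6% fell, and of those above the dim range 16.4% and 21.9%. Serpinb2, an inhibitor of plasminogen activators, read 172 and 186 against 2618 and 2456, 14.2-fold (3.5 on the log2 scale, SE 0.08), and Timp1, an inhibitor of matrix metalloproteinases, 242 and 236 against 1848 and 1748 (2.68). Both were under 60 in all resting arrays. The urokinase gene Plau fell, from 3774 and 3762 to 2490 and 2464 (-0.60), although it was higher in resting shDab2 cells (0.37), and its change between the states was -0.97 (limma adjusted p = 2.3e-05). Adam8, a membrane protease, fell by 0.78 and Mmp9, a gelatinase, by 0.41. Secreted factors that rose included the vasoconstrictor Edn1 (1.69) and the matrix protein Tnc (1.64). The protease inhibitor gene Spink5 read 245 and 251 against 1367 and 1359 (2.25) and was higher at rest as well (1.5).

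Genes of DNA replication were lower almost throughout. Of 31 measured members 28 fell and none rose, with a median of -0.50. Gins2, a part of the replicative helicase, read 253 and 281 in the shLuc LPS arrays and 77.1 and 82.9 in the shDab2 LPS arrays (-1.28, SE 0.08, limma adjusted p = 2.0e-06). Mcm2 and Mcm6, of the same helicase, read 569 and 587 against 283 and 292 and 1441 and 1609 against 827 and 799 (-0.90 and -0.87). Rrm2, the regulated subunit of ribonucleotide reductase, read 1684 on both shLuc arrays and 930 and 893 on the shDab2 arrays (-0.85). Every one of these pairs was separate, as in all called genes. Cdc6, Cdt1 and Tyms were not called.

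The genes of mitosis fell in 21 of 28 members and rose in none, with a median of -0.51. Kif23, a motor protein of cytokinesis, read 2718 and 2658 against 1303 and 1243 (-1.05, SE 0.05, limma adjusted p = 3.6e-07), Cenpa, the histone H3 variant of the centromere, 12068 and 13626 against 6711 and 6592 (-0.94), and Aurkb, a mitotic kinase, 2073 and 1916 against 1048 and 1083 (-0.87). The proliferation marker Mki67 fell by 0.68. In resting cells fewer members were called lower, 11 of the replication list and 10 of the mitosis list, with medians of -0.20 and -0.13. The change between the states was called as more negative with LPS for 7 replication and 12 mitosis genes, and as less negative for none. Taking the shLuc PBS arrays as 0, the median of the replication list was -0.22 and -0.19 in the shDab2 PBS arrays, -0.68 and -0.66 in the shLuc LPS arrays and -1.28 and -1.24 in the shDab2 LPS arrays. LPS-treated shDab2 cells thus had the lowest values of the 4 groups.

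The promoter of Mcm6 (chr1:128359656-128359955, minus strand, GRCm38.p6) is shown with the core of an E2F site, TTTNNCGC on either strand, in capitals, since E2F factors govern many replication genes.
Mcm6: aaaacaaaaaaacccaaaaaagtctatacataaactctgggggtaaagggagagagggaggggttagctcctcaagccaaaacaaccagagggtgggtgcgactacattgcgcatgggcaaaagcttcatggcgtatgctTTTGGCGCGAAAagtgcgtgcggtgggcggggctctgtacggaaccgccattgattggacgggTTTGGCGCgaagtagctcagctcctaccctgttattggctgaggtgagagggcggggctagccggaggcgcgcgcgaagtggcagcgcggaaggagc
It held 3 such cores, 2 of which overlap. The core stood in 48.1% of the 27 promoters of the replication list, in 4.35% of the 23 of the mitosis list, in 10.4% of those of all genes called lower, in 6.16% of those called higher, in 6.77% of the 18476 of all genes on the array and in 5.17% of all promoters.

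**Figure D4:**
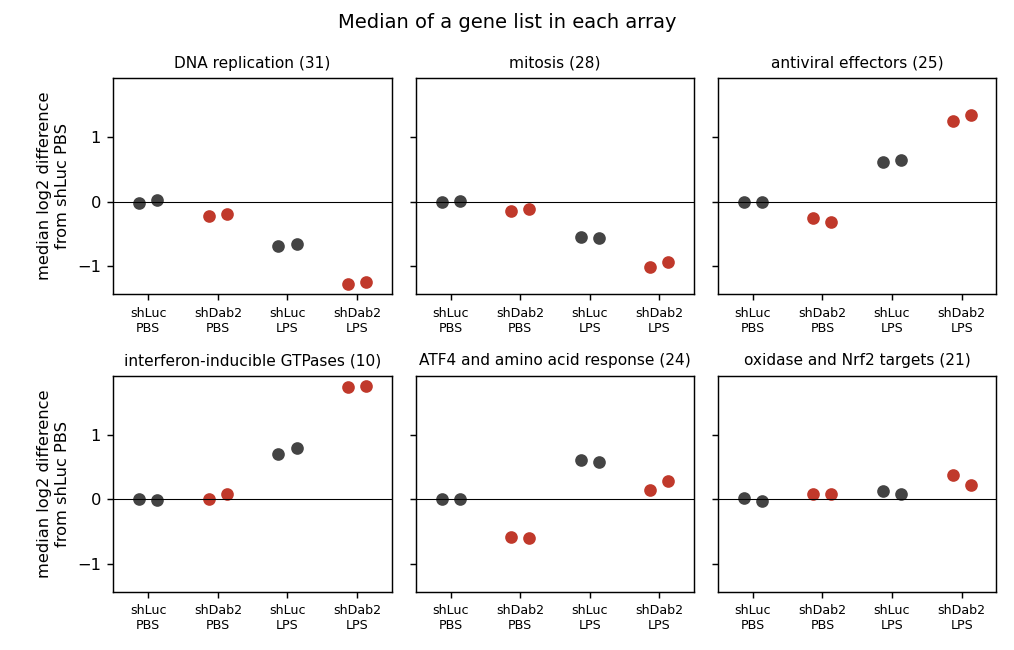
Median over the measured members of 6 gene lists of log2(intensity + 50) in each array, relative to the mean of the shLuc PBS arrays (black shLuc, red shDab2, 1 point per array). The replication and mitosis medians are lowest in the shDab2 LPS arrays, the antiviral median is below 0 in the shDab2 PBS arrays and highest in the shDab2 LPS arrays, and the ATF4 median is near -0.6 in shDab2 cells with PBS and above 0 with LPS.

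Genes that ATF4 turns on when amino acids run short were lower in shDab2 cells, and less so with LPS than without. Of 24 measured members 18 were lower in resting cells (median -0.58) and 9 with LPS (median -0.12), with 1 higher (Slc7a11, the cystine transporter, 0.22, a call lost when single LPS arrays were left out). Trib3, a pseudokinase that restrains ATF4, read 474 and 466 against 94.9 and 84.3 at rest (-1.90) and 1313 and 1406 against 970 and 913 with LPS (-0.51). The gap narrowed, with a change of 1.39 (limma adjusted p = 1.5e-05), and a positive change was called for 14 of the 24 members and a negative one for none. Cth, an enzyme that makes cysteine, stayed clearly lower, at 1564 and 1490 against 535 and 585 (-1.37), as did the amino acid carrier Slc1a4 (-1.12) and Asns, asparagine synthetase (-0.52). Atf4 (0.02) and Ddit3 (0.01) were not called with LPS. Of 19 aminoacyl-tRNA synthetase genes 9 were lower at rest and none higher, whereas with LPS 4 were lower and 1 higher, and the calls of all 5 were lost under some alternative.

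Lipid genes split. Fads1, the delta-5 desaturase, read 4473 and 5376 against 1646 and 1528 (-1.60, SE 0.08), and was lower at rest (-1.07). Elovl6, which lengthens fatty acids, fell by 0.84, Scd2, a desaturase, by 0.56, and Dhcr7, of the last steps of cholesterol synthesis, by 0.54. Of 29 genes of cholesterol and fatty acid synthesis, 27 of them above the dim range, 7 fell and 3 rose. Among all genes above the dim range 21.9% fell and 16.4% rose. The list median of -0.10 turned to 0.06 without normalization between arrays. The cholesterol exporter Abca1 read 117 and 129 against 590 and 617 (1.92) and was higher at rest too (1.32). Scarb1, a receptor for high-density lipoprotein, fell from 792 and 808 to 412 and 408 (-0.89). The fatty acid binding protein genes Fabp5 and Fabp4 fell by 0.90 and 0.86. Purine synthesis genes fell in 5 of 14 members, with none higher. Among them was Adssl1, a muscle-type adenylosuccinate synthase (393 and 324 against 100.2 and 122, -1.34). Adssl1 was lower at rest as well (-0.91, limma adjusted p = 0.00015), and its change between the states of -0.44 was not called. The purine list median was -0.11 and that of the endoplasmic reticulum chaperones -0.09 (7 of 21 lower and none higher). Both turned positive without normalization between arrays (0.02 in each).

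Genes of energy metabolism went both ways. Of 27 genes of oxidative phosphorylation 9 rose and 2 fell, with a median of 0.14, and 10 were higher at rest. Atp5a1, a subunit of ATP synthase, read 2210 and 1745 against 3418 and 3753 (0.85), and Cyc1, of complex III, rose by 0.51. Pdha1, a subunit of the pyruvate dehydrogenase complex, read 1769 and 1861 against 585 and 661 (-1.47), and the resting arrays gave the same difference (-1.48). Of 21 glycolysis and hypoxia genes 2 rose and 3 fell, beside 16.4% and 21.9% of all genes above the dim range. Car12, a membrane carbonic anhydrase, fell by 1.59 and Slc16a3, a lactate exporter, by 0.52. Of 10 cytosolic ribosomal protein genes 5 rose and none fell (median 0.26), and of 11 reference genes 4 rose and 2 fell (median 0.08). The calls of Rpl19, Rpl8 and Rpl4, and of the reference genes Actb, Ywhaz, Tbp and Tfrc, were each lost under some alternative. 

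Among p53 targets 9 of 20 rose and 2 fell. Gadd45a, a stress-induced inhibitor of the cell cycle, read 1730 and 1721 against 4874 and 4662 (1.44), and Cdkn1a, the inhibitor of cyclin-dependent kinases p21, 10128 and 10271 against 15468 and 14782 (0.57). The Cdkn1a difference was of similar size at rest (0.67), whereas that of Gadd45a was small there (0.20). In the Bcl-2 family the death-promoting Bcl2l11 rose by 0.83 and Bmf fell by 0.55. Of 28 AP-1, EGR and immediate early genes 14 rose and 5 fell. Id3 and Id2, inhibitors of basic helix-loop-helix factors, read 1954 and 1815 against 5080 and 4824 and 1561 and 1431 against 3405 and 3798 (1.37 and 1.24), and Myc 502 and 527 against 1115 and 1145 (1.06). Factors that steer myeloid cells went both ways, with Mitf up by 1.03 and the monocytic factors Klf4 and Cebpa down by 0.65 and 0.61. Among genes of cyclic AMP signaling the phosphodiesterase Pde4b rose by 1.06 (563 and 607 against 1258 and 1284), while Pde4a fell by 0.82 and the adenylyl cyclase Adcy7 by 0.83.

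The remaining genes among the 12 largest falls belonged to no single group. Sh3pxd2a, a scaffold of podosomes, read 520 and 486 against 132 and 120 (-1.65), Prss16, a serine protease, 998 and 989 against 324 and 333 (-1.46), and Kbtbd11, a kelch-repeat protein, 891 and 767 against 232 and 240 (-1.62). Kbtbd11 did not differ detectably in resting cells (4442 and 3886 against 4143 and 4009). Nid2, a basement membrane protein, fell at least 3.03-fold and Gm11545 at least 4.72-fold, since both shDab2 arrays lay below 50. Nid2 and Gm11545 were lower at rest as well (-1.13 and -0.93), and the change between the states was called for Gm11545 but not for Nid2. Fam13c (-1.39) and 3110082I17Rik (-1.38) completed the largest falls. The latter differed by the same amount at rest (-1.38).

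Set against the resting cells, 597 of the 1730 genes higher with LPS were also higher at rest, 65 were lower there and 1068 were not called. Of the 2223 lower genes 832 were lower at rest, 33 higher and 1358 not called. Over all 19084 genes 1079 were called higher at rest and 1221 lower. The change between the states was called for 429 of the higher genes with a positive sign and for 448 of the lower genes with a negative sign, so for most called genes a different line effect with LPS than without was not shown. Over all genes 519 changes were positive and 587 negative. Across the 9505 genes above the dim range the differences with and without LPS correlated with Pearson's r = 0.528; they come from separate arrays but from one normalization, and genes are not independent replicates. The share of positive calls in this test was 48.5% of probes and 18.5% without normalization between arrays, and the number of probes called, 1263, was 794 without shLuc PBS replicate 1 and 830 without shDab2 PBS replicate 1.

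**Figure D5:**
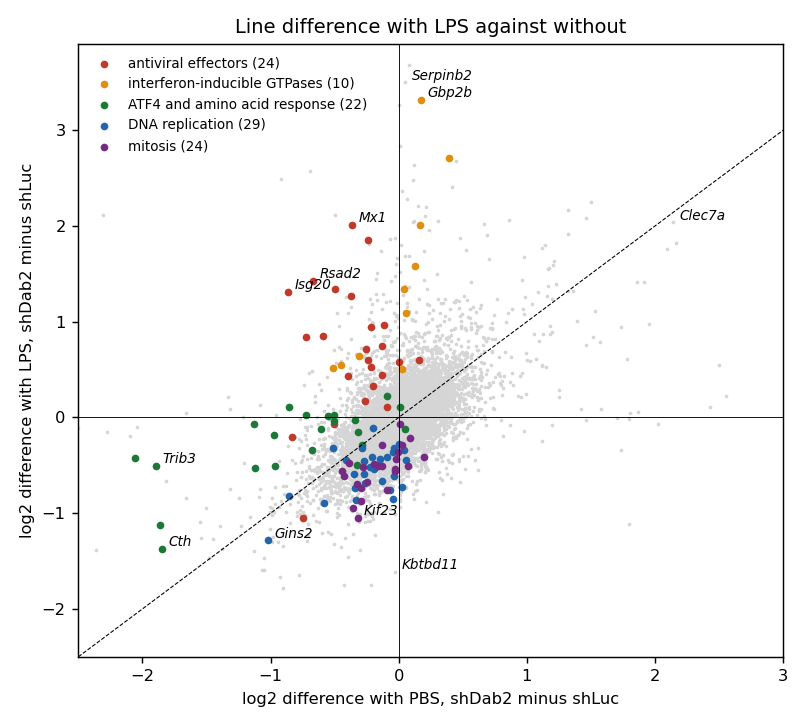
Log2 difference of shDab2 minus shLuc cells with LPS (y axis) against that with PBS (x axis) for 9505 genes (grey), with members of 5 lists in colour and the dashed line marking equal differences; 7 genes lie outside the axes. Antiviral effectors lie mostly above 0 with LPS, with Ifi27l2a at -1.05 among the exceptions, and mostly below 0 with PBS, ATF4 genes lie far to the left and above the line, and replication and mitosis genes lie mostly below it.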

How the data were processed

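RNA of RAW264.7 cells was hybridized to 8 one-colour Phalanx OneArray mouse arrays, 2 per group. The authors deposited linear intensity values with the background subtracted, from -11 to 65470. The methods name no normalization, and the values are not normalized between arrays (medians 20 to 37, 75th percentiles 209 to 319). A table of group means was not used. The genome build behind the probes is not given in the sources used here.

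The 26423 probes were quantile-normalized, 50 was added and the log2 taken, and limma 3.58.1 (R 4.3.3) was fitted with a mean per group over 8 arrays, a variance trend, 4 residual degrees of freedom and Benjamini-Hochberg adjustment. Probes were named from the platform annotation, with symbols updated by Entrez ID (21825 matched); 2424 genes had several probes, of which 10 had opposite calls. The design foresaw this normalization for arrays that are not normalized. The method was tested on simulated data. Replicate numbers did not pair the arrays (r of deviations -0.060 to 0.106).

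The comparison, the 49 gene lists and the genes named were chosen with earlier results of these data known. The text names Dab2, 16 genes the study names, the 12 largest rises and falls, up to 5 called members per list, the 6 largest changes between the states in each direction, and 46 further list members, chosen after their values were seen. The E2F motif was added after the results were seen. Alternatives covered scaling, offset, a filter on dim probes, the variance model, the replicate block, the LPS arrays alone and leaving out each array. Promoter sequences are those of RefSeq (GRCm38.p6), matched by symbol for 14967 genes.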

Additional observations from a re-analysis of the deposited data

Results flagged for a closer look

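The line difference with LPS was tested against that without for each gene, and the result was called for 5.8% of all genes. The genes given here were chosen partly for being called or for their size, so their number carries no information. The values below, on the log2 scale, are those of the genes the study names and of the genes with the largest changes. The positive changes were those of Il6 (3.61), Serpinb2 (3.45), Lcn2 (3.26), Gbp2b (3.14), Ifnb1 (2.62), Mx1 (2.37), Ifit1 (2.09), Il1a (2.06), Ifit2 (1.84), Ccl5 (1.67), Pilra (1.51), Cxcl10 (1.36), Pde4b (0.69), Socs3 (0.69) and Tnf (0.69). The negative ones were those of Cxcl2 (-0.97), Trp53inp1 (-1.34), Chst1 (-1.37), Serpinb8 (-1.49), Kbtbd11 (-1.59), Scel (-2.33) and Csnk1a1 (-5.07).

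Scel read 148 and 145 in shLuc and 1108 and 1095 in shDab2 cells with PBS, but 65.1 and 55.5 against 75.2 and 82.9 with LPS. Serpinb8 and Trp53inp1 differed by 1.58 and 1.42 in resting cells and by 0.09 and 0.08 with LPS. Chst1 was higher at rest by 1.12 and lower with LPS (-0.25, limma adjusted p = 0.028), a call lost in 6 alternatives. Csnk1a1 has a single probe, which read -1 and 4.38 in the shLuc PBS arrays and between 1720 and 2425 in the other 6 arrays, so its change rests on these 2 near-zero readings, whose cause was not tested.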

How the results depend on the processing

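Of 279 named genes besides Dab2, 225 kept their call in every alternative, 54 changed it in at least one, and 1, Cd14, changed direction (1.05 without shLuc LPS replicate 1 and -0.35 without shLuc LPS replicate 2). Without normalization between arrays the probes called for the change between the states were 2415, and the list medians of cholesterol and fatty acid synthesis, endoplasmic reticulum chaperones and purine synthesis turned to 0.060, 0.020 and 0.018. With an offset of 16 instead of 50 the probes past a log2 ratio of 1.5 with LPS were 143 against 83. The fall of Dab2 passed the test with an offset of 16 (-0.55, limma adjusted p = 0.041), and at -0.36 with dim probes left out (0.025), without a variance trend (0.037) and with a robust one (0.029). Leaving out single arrays gave -0.50 to -0.24 for Dab2, past the threshold without shLuc LPS replicate 1, and 794 to 1105 probes for the change between the states. With the replicate number as a block 4477 probes were called with LPS, against 4618, and 1170 for the change, against 1263, although the numbers did not pair the arrays. The 4 LPS arrays alone gave 3436. With 2 arrays a group, probes near 50 and those at the scanner ceiling give little information on a difference.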

Other observations

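A few probes were bright on most arrays and near 0 on single ones. Idh3g read 14.6 and 1830 in the shDab2 LPS arrays against 5627 and 5205 in the shLuc LPS arrays. Laptm4a read 3559 and -1.75 against 3428 and 3021, Mrpl46 -1 and 1956 against 1680 and 1657, and Tmem160 3408 and 23.2 against 3576 and 3560. Vsnl1 read 6816 on 1 shLuc LPS array and between 62.4 and 132 on all others. None of these was called with LPS, in spite of fitted differences of -3.97 to -2.46, and they were picked after their values were seen. The 4547 probes with no single gene symbol included 171 called higher and 131 called lower, which are not named here.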
